A study of Arabidopsis thaliana with 6 samples.

Results

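Serine carboxypeptidase-like (SCPL) genes were compared between wild-type Arabidopsis plants and plants lacking the vacuolar calcium exchangers CAX1 and CAX3. The members were the genes whose symbol in the array's annotation is SCPL (in either case) followed by a number and whose probe set names no other gene. There were 29 such genes, each with 1 probe set, among 13356 genes named by such probe sets and 22746 probe sets tested. A RefSeq gene table lists 51 genes with an SCPL symbol or synonym, and the other 22 were not analysed here. Those 22 include SNG1 (SCPL8), SCPL19 (SNG2) and BRS1 (SCPL24), the family members whose roles are best known. The spelling of each symbol below follows the annotation.

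SCPL proteins share the fold and the serine, aspartate and histidine catalytic triad of carboxypeptidases, enzymes that remove single amino acids from the carboxyl end of proteins. They enter the secretory pathway, and many reach the vacuole. Some members of the family, such as SNG1 and SCPL19, have become acyltransferases that move the acyl group of a glucose ester, sinapoylglucose among them, to malate, choline or other acceptors. BRS1 is a secreted carboxypeptidase found through its effect on brassinosteroid signalling. For many of the numbered members no substrate is given here.

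The samples were whole plants of the Columbia-0 ecotype, given as 40 days old, and each genotype, wild type and cax1cax3 double mutant, had 3 arrays. Seedlings of both genotypes spent 10 days on medium of 0.5 strength with 0.5% sucrose, with days of 16 hours at 22 °C, and 3 weeks in soil followed, until necrotic lesions began to show on the mutant. The labels give neither the mutant alleles nor whether samples were separate plants or pools, so p-values reflect only how these samples vary, and that variation may be technical. In whole plants, a smaller share of an organ and less RNA within it cannot be told apart. Expression is given on the log2 scale. Over all probe sets, arrays of 1 genotype correlated at 0.976 to 0.993 and arrays of different genotypes at 0.962 to 0.981.

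Detection was judged against 27 control probe sets for bacterial transcripts, whose array values had a median of 4.04 and a 95th percentile of 4.70. Of the 29 genes, 19 lay above that percentile on all 6 arrays. Another 4, scpl18, scpl22, scpl28 and scpl44, lay at or below it on all 6 arrays, with values from 4.03 to 4.61. The remaining 6, scpl16, scpl21, scpl30, scpl33, scpl38 and scpl41, lay on both sides of it. At such low levels a difference in log2 value may understate a change in transcript or reflect none, and neither was tested.

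**Figure D1:**
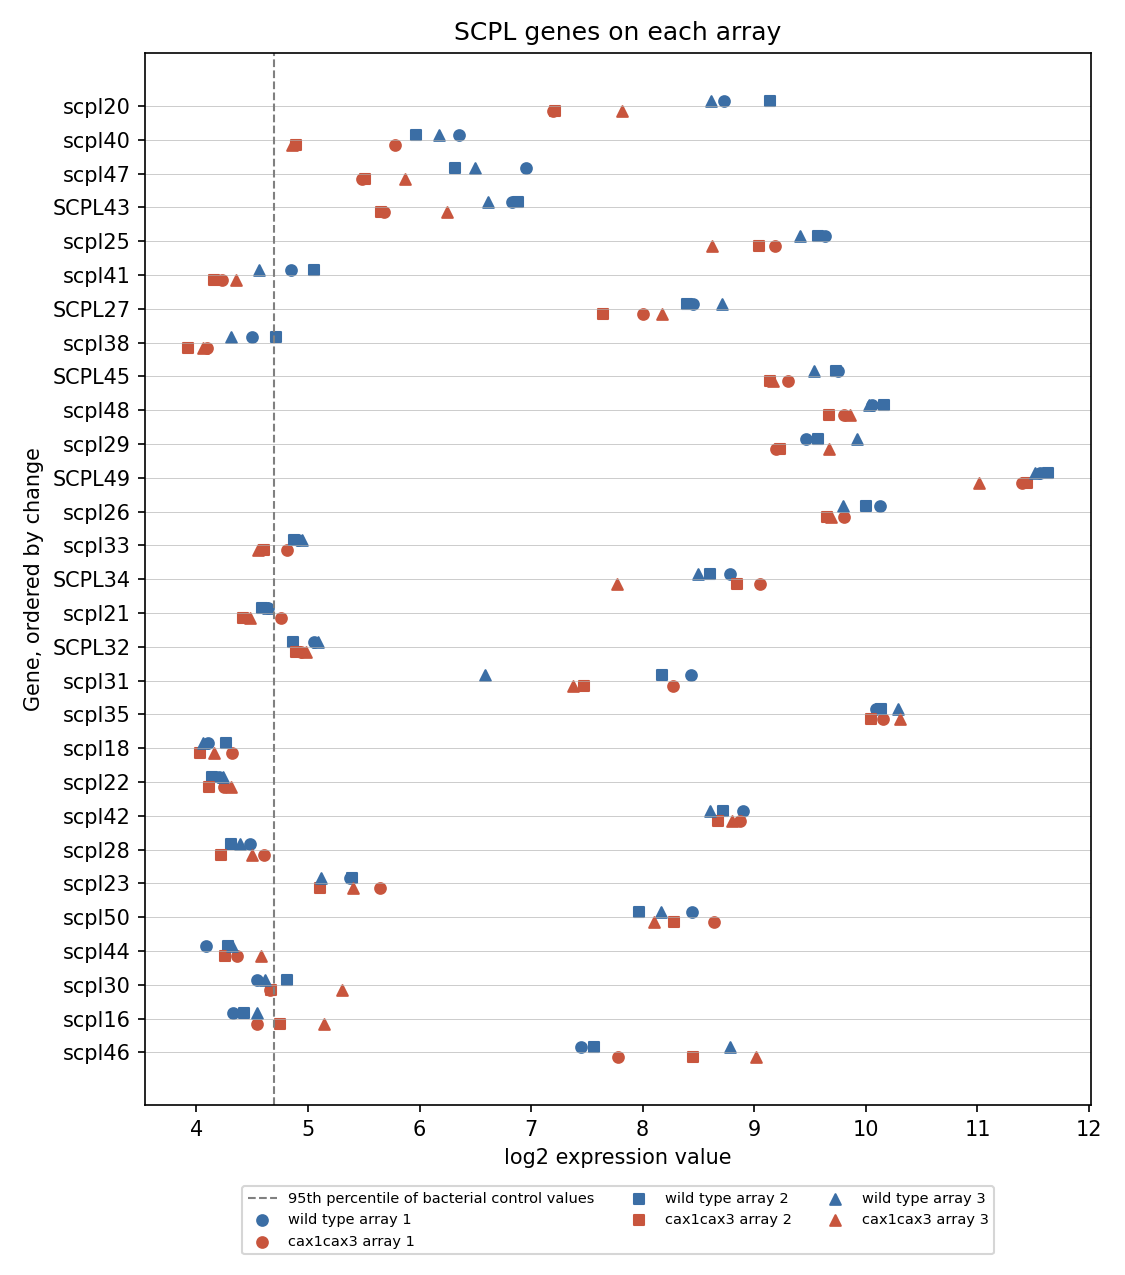
Log2 expression value (horizontal axis) of each of the 29 SCPL genes (vertical axis, ordered by change) on the 3 wild-type arrays (blue) and the 3 cax1cax3 arrays (red), with the array number as the marker shape. The dashed line marks the 95th percentile of the bacterial control values, 4.70. The genes at the top, such as scpl20, scpl47 and SCPL43, have all red points left of all blue points.

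Which SCPL genes differed between the genotypes was tested with limma across all probe sets, with Benjamini-Hochberg adjustment over all of them. At an adjusted p under 0.05, 3 genes were lower in the mutant, scpl20, scpl47 and SCPL43, and 0 were higher. The levels of scpl20 were 2.67-fold lower, and those of scpl47 and SCPL43 were 1.95-fold and 1.88-fold lower. Over all probe sets 5.62% were called, 3.28% lower and 2.34% higher, against 10.3% of the SCPL genes called lower. At an unadjusted p under 0.05, 11 SCPL genes were lower and 0 were higher, where 10.6% of all probe sets were lower and 8.93% higher.

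The gene scpl20 (AT4G12910) had the largest difference of the 29. Its wild-type values were 8.73, 9.14 and 8.61, and its mutant values were 7.19, 7.21 and 7.82. Every mutant array lay below every wild-type array, and mutant array 3 was the closest to the wild type. The mutant minus wild-type difference was -1.42 ± 0.22 (log2, SE, n = 3 and 3; limma adjusted p = 0.0167), with a 95% interval from -1.93 to -0.90. The call was lost in 4 of 6 fits that left out 1 array, those without array 1 or 2 of either genotype (adjusted p up to 0.0870).

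The second called gene was scpl47 (AT5G22980). It measured 6.95, 6.32 and 6.50 in the wild type and 5.48, 5.51 and 5.87 in the mutant. The groups did not overlap, and wild-type array 1 stood highest. The difference was -0.97 ± 0.19 (log2, SE, n = 3 and 3; limma adjusted p = 0.0375). It kept its call only without mutant array 3, and without mutant array 2 the adjusted p reached 0.150.

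SCPL43 (AT2G12480) was the third called gene. Its values were 6.83, 6.88 and 6.61 in the wild type and 5.68, 5.66 and 6.24 in the mutant. The groups did not overlap, and mutant array 3 again lay nearest to the wild type, as it did for scpl20 and scpl47. The difference was -0.91 ± 0.18 (log2, SE, n = 3 and 3; limma adjusted p = 0.0371). Of the 6 fits without 1 array, only that without mutant array 3 called it, and the adjusted p was as high as 0.142 without wild-type array 2.

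Over all probe sets, same-numbered arrays of both genotypes shared deviations from the genotype means, so the fit was repeated with the array number as a replicate block. With the block 7 SCPL genes were lower and 0 were higher, against 5.15% and 4.63% of all probe sets. The 7 were scpl20, scpl47, SCPL43 and, called only with the block, scpl40, scpl25, SCPL27 and SCPL45. The adjusted p with the block was 0.0267 for scpl20, 0.0385 for scpl47 and 0.0492 for SCPL43.

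Among the genes called only with the block, scpl40 (AT3G63470) had the largest difference. It measured 6.35, 5.97 and 6.17 in the wild type and 5.78, 4.89 and 4.86 in the mutant. Mutant array 1 lay close to the wild-type range, and mutant arrays 2 and 3 lay well below it. The difference was -0.99, with an SE of 0.26 without the block and 0.16 with it (limma adjusted p = 0.0837 and 0.0279). Without mutant array 1 the difference was -1.29 and the gene was also called without a block (adjusted p = 0.0164). In the other 5 fits without 1 array it was not called, with an adjusted p up to 0.261.

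The other genes called only with the block had differences of -0.47 to -0.59, at levels far above the bacterial controls. SCPL45 (AT1G28110) had values of 9.75, 9.73 and 9.54 in the wild type and 9.30, 9.14 and 9.17 in the mutant. Its difference of -0.47 ± 0.10 was 1.39-fold (limma adjusted p = 0.0529 without the block and 0.0431 with it). All mutant arrays of SCPL45 were below all wild-type arrays, within a narrow range in each genotype.

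The values of scpl25 (AT3G02110) were 9.64, 9.58 and 9.41 in the wild type and 9.18, 9.04 and 8.62 in the mutant. In both genotypes array 3 was the lowest for this gene. Its difference was -0.59 ± 0.16 (limma adjusted p = 0.0937 without the block and 0.0332 with it). SCPL27 (AT3G07990) measured 8.45, 8.39 and 8.71 in the wild type and 8.00, 7.65 and 8.17 in the mutant. For SCPL27 array 3 was instead the highest in both genotypes. Its difference was -0.58 ± 0.16 (limma adjusted p = 0.103 without the block and 0.0322 with it).

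**Figure D2:**
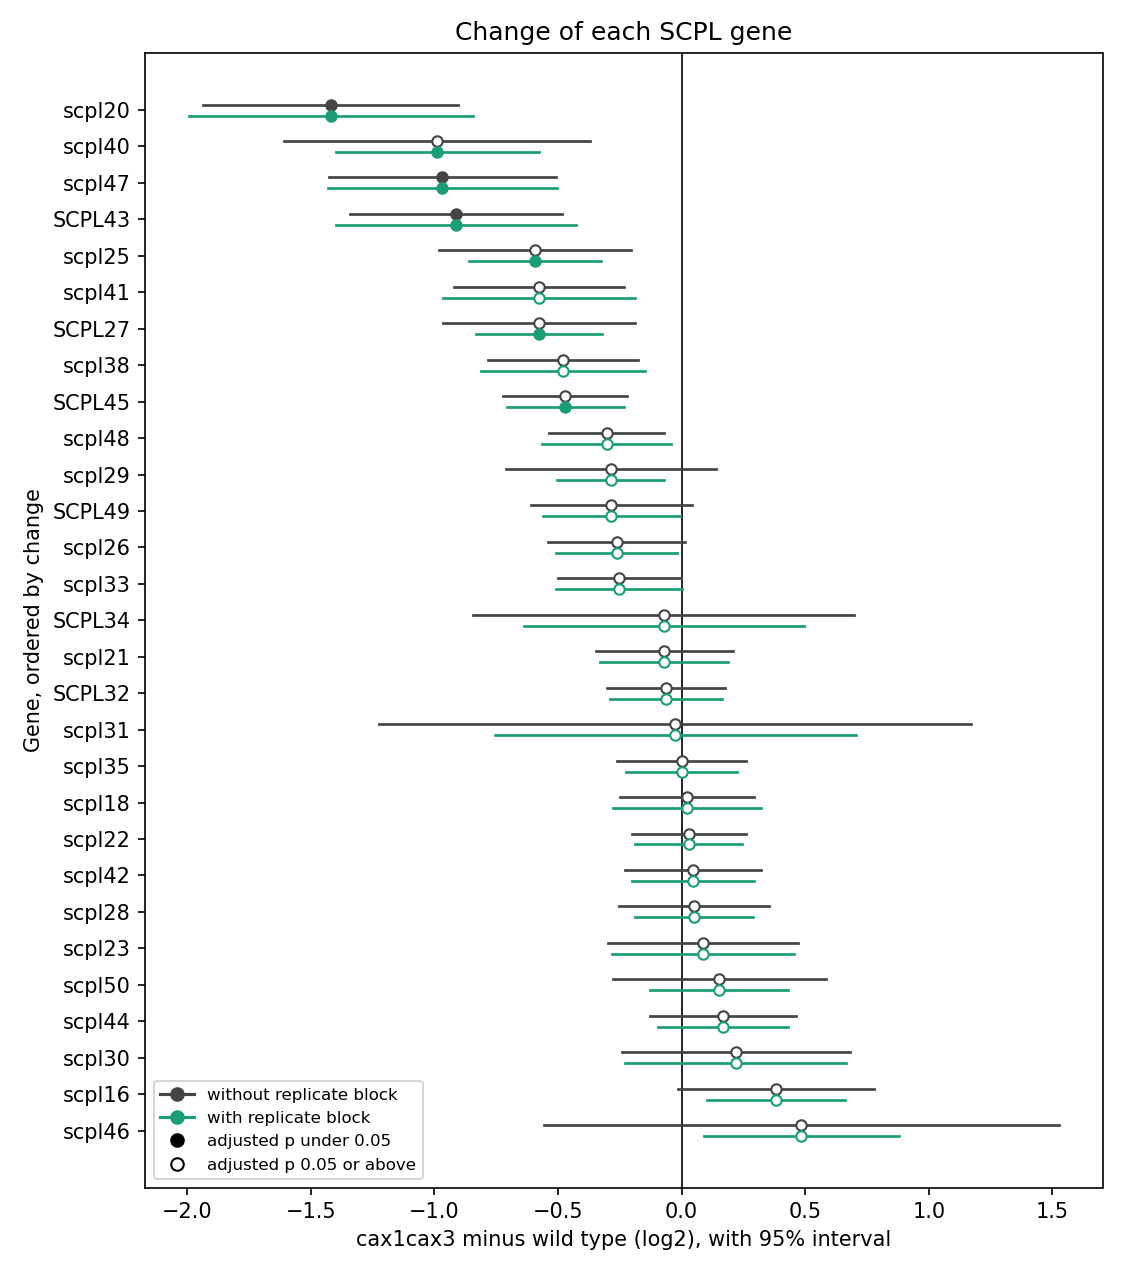
Difference between cax1cax3 and wild type on the log2 scale (horizontal axis) for each SCPL gene (vertical axis), with its 95% interval, from limma without the replicate block (grey) and with it (green). Filled points have an adjusted p under 0.05, which holds for 3 genes without the block and 7 with it, all of them left of 0.

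Counting arrays alone, 12 of the 29 genes had every mutant value below every wild-type value, and 0 had every mutant value above. That is 41.4% of the SCPL genes, where 13.0% of all probe sets had all mutant values lower and 11.6% had all mutant values higher. Besides the 7 genes above, these were scpl48, SCPL49, scpl33, scpl38 and scpl41, and none of the 5 was called with or without the block.

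SCPL49 (AT3G10410), which RefSeq also lists as carboxypeptidase Y after the vacuolar enzyme of yeast, gave a strong signal on every array. Its values were 11.56, 11.63 and 11.52 in the wild type and 11.40, 11.45 and 11.01 in the mutant. The groups were separate by little except for mutant array 3, which was the lowest. The difference was -0.28, with a 95% interval from -0.61 to 0.04 (limma adjusted p = 0.326 and 0.179 with the block).

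The gene scpl48 (AT3G45010) measured 10.05, 10.17 and 10.03 in the wild type and 9.80, 9.67 and 9.86 in the mutant. The spread within each genotype was small, with an SD of 0.07 in the wild type and 0.10 in the mutant. Its difference was -0.30 ± 0.10 (limma adjusted p = 0.147 and 0.142 with the block).

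Both scpl41 and scpl38 had wild-type values near the upper edge of the bacterial range and mutant values within it, and neither passed the test. The gene scpl41 (AT5G42230) measured 4.85, 5.06 and 4.56 in the wild type and 4.23, 4.15 and 4.36 in the mutant. Its difference was -0.58 ± 0.14 (limma adjusted p = 0.0745). The gene scpl38 (AT2G05850) had a difference of -0.48 ± 0.13 (limma adjusted p = 0.0854), and only wild-type array 2, at 4.71, was above the bacterial 95th percentile. With a variance trend and robust estimation in limma both were called, with adjusted p values of 0.0479 and 0.0478. The gene scpl33 (AT3G17180) measured 4.91, 4.88 and 4.95 in the wild type and 4.81, 4.61 and 4.55 in the mutant, a difference of -0.25 (limma adjusted p = 0.248).

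Within array numbers, 14 genes were lower in the mutant for all 3 numbers, 2 were higher for all 3 and 13 were of mixed sign. Of all probe sets, 24.0% were lower and 25.4% higher for all 3 numbers. The 2 genes besides those 12 that were lower for every number were scpl29 and scpl26. The gene scpl29 (AT4G30810) measured 9.46, 9.58 and 9.92 in the wild type and 9.20, 9.23 and 9.67 in the mutant. Both genotypes were highest on array 3, so the groups overlapped, while the differences within numbers were alike at -0.26, -0.34 and -0.25. Limma gave an adjusted p of 0.454, or 0.106 with the block. The gene scpl26 (AT2G35780) measured 10.13, 10.00 and 9.80 in the wild type and 9.80, 9.65 and 9.69 in the mutant (limma adjusted p = 0.279 and 0.163 with the block).

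The 2 genes that were higher for all 3 numbers were scpl46 and scpl16. The gene scpl46 (AT2G33530) measured 7.45, 7.56 and 8.79 in the wild type and 7.78, 8.45 and 9.01 in the mutant. Array 3 was the highest in both genotypes, and over both genotypes it stood 1.09 log2 units above the others. The difference between genotypes was 0.48 ± 0.44 (limma adjusted p = 0.628), and with the block the SE was 0.15 (adjusted p = 0.124). The gene scpl16 (AT3G12220) went from a mean of 4.43 to 4.81, with an adjusted p of 0.274 by limma and 0.0972 with the block.

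**Figure D3:**
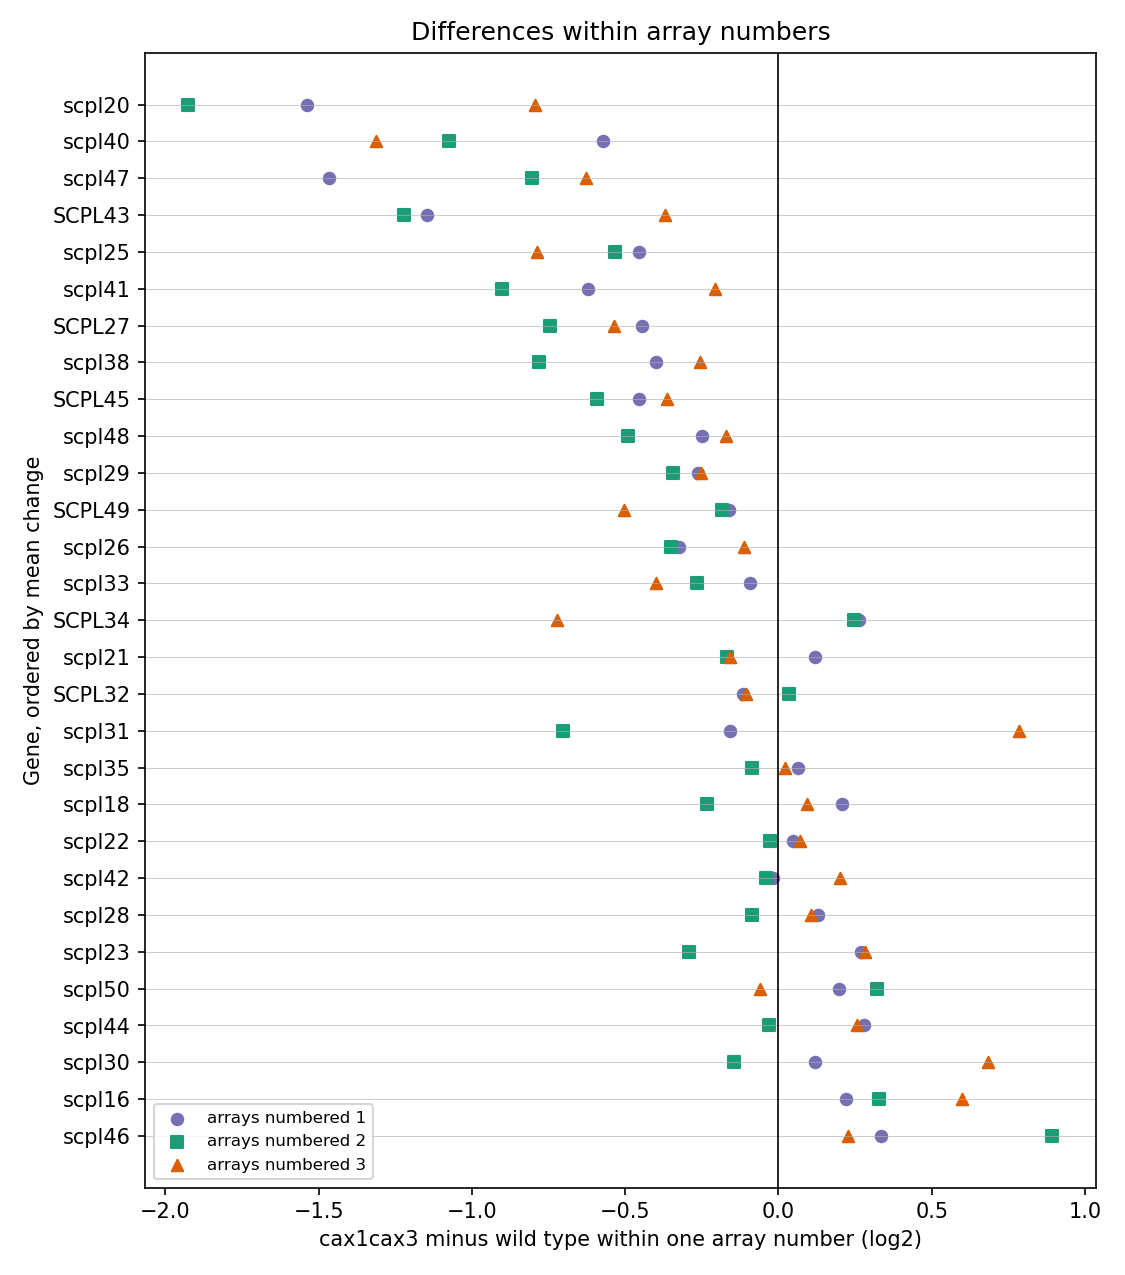
Difference between cax1cax3 and wild type within arrays numbered 1, 2 and 3 (horizontal axis, log2) for each SCPL gene (vertical axis). All 3 points lie left of 0 for 14 genes and right of 0 for 2, scpl46 and scpl16, and those of scpl31 and SCPL34 lie far apart on both sides of 0.

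For some genes the arrays of a genotype differed more than the genotypes did. The values of scpl31 (AT1G11080) were 8.43, 8.18 and 6.59 in the wild type and 8.27, 7.47 and 7.37 in the mutant. Its difference within numbers was -0.16, -0.70 and 0.79, and the mean difference of -0.03 had a 95% interval from -1.22 to 1.17. SCPL34 (AT5G23210) was higher in the mutant for numbers 1 and 2 by 0.26 and 0.25 while the difference for number 3 was -0.72, where mutant array 3 measured 7.77 and the other mutant arrays 9.05 and 8.85. Wild-type array 3 of scpl31 and mutant array 3 of SCPL34 thus stood apart from the others, and no difference between genotypes was detectable at this spread.

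A contrast to these was scpl35 (AT5G08260), which differed by 0.00 between genotypes with a 95% interval from -0.26 to 0.26. It measured 10.09, 10.13 and 10.29 in the wild type and 10.16, 10.05 and 10.31 in the mutant. The gene scpl42 (AT5G42240) likewise had a narrow interval, from -0.23 to 0.32. Of the 22 genes called in neither fit, 20 had a 95% interval that stayed within 1 log2 unit on both sides, and 9 stayed within 0.5. The 2 wider ones were scpl31 and scpl46. The genes scpl21, SCPL32, scpl18, scpl50, scpl44 and scpl30 had changes from -0.07 to 0.22, none of them called. Among these, scpl30 (AT4G15100) was within or near the bacterial range on all arrays but mutant array 3, at 5.30.

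The changes of the 29 genes ran from -1.42 to 0.48. Their median was -0.07, beside 0.01 for all probe sets tested, and 18 were negative and 11 positive. That is 62.1% negative, beside 47.5% of all probe sets. A change of -0.5 or lower was found for 7 genes, or 24.1%, beside 6.99% of all probe sets, and a change of 0.5 or higher for 0 genes, beside 6.85%. These shares were not tested, because the genes were chosen with earlier results known.

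**Figure D4:**
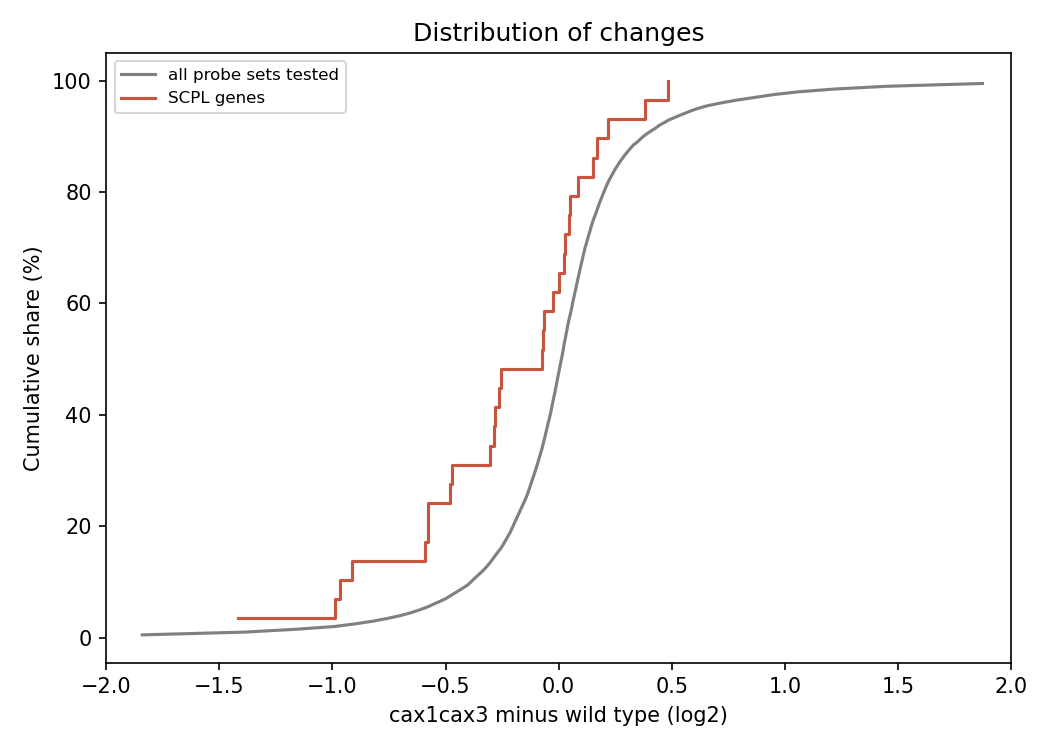
Cumulative share in percent (vertical axis) of the difference between cax1cax3 and wild type on the log2 scale (horizontal axis, shown from -2 to 2) for the 29 SCPL genes (red steps) and all 22746 probe sets tested (grey). At -0.5 the red steps lie above the grey line, since 24.1% of the SCPL genes and 6.99% of all probe sets have a change of -0.5 or lower.

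Some SCPL genes lie next to each other in the genome, by the order of protein-coding genes in RefSeq assembly TAIR10.1. In the adjacent pair scpl28 and scpl26, scpl26 was well above the bacterial controls with a change of -0.26, while scpl28 stayed within the bacterial range with a change of 0.05. In the adjacent pair scpl22 and scpl23 neither was called, with changes of 0.03 and 0.09. The genes scpl41 and scpl42 are separated by 2 other genes, and their changes were -0.58 and 0.05. Differences between the genes of a pair were not tested.

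Genes that supply the substrates of SCPL acyltransferases were followed as a list of 22 genes of the sinapate and phenylpropanoid route, of which 5 were measured. For this and the other lists, measured means that the annotation pairs the gene with a probe set that names no other gene. The rest were not matched in this way, which does not mean that the array lacks them. Of the 5 measured genes, 1 was lower and 0 were higher by limma, with and without the block. At an unadjusted p under 0.05 there were 3 lower and 0 higher. The list's median change was -0.39. The lower one was UGT84A3, a glucosyltransferase that makes glucose esters of hydroxycinnamic acids. It measured 8.36, 8.59 and 9.06 in the wild type and 7.49, 7.29 and 7.60 in the mutant, a difference of -1.21 ± 0.19 (limma adjusted p = 0.0187). Its relative UGT84A1 had a difference of -0.39 (adjusted p = 0.0617), and UGT84A4 one of 0.21 (adjusted p = 0.464). HCT, which forms hydroxycinnamoyl esters of shikimate, had a difference of -0.41 (adjusted p = 0.0748). REF1, the aldehyde dehydrogenase that yields ferulate and sinapate, had one of 0.19 (adjusted p = 0.585). The acyltransferases named above, SNG1 and SCPL19, were not analysed here, and a link between this list and the SCPL differences was not tested.

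The anthocyanin route, in which some SCPL proteins acylate the pigment, had 4 of 10 listed genes measured. By limma 0 were called, at an unadjusted p under 0.05 there were 0 as well, and with the block DFR, dihydroflavonol reductase, was lower (adjusted p = 0.0119, difference -1.16). All 4 were highest on array 3 of each genotype, as scpl46 and scpl29 were. DFR measured 6.63, 6.75 and 8.70 in the wild type and 5.71, 5.43 and 7.48 in the mutant.

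Other proteases of the vacuole and the secretory pathway were compared as a list of 13 genes, of which 6 were measured. By limma 1 was lower and 0 were higher, with or without the block, and the median change was -0.03. The lower one was DELTA-VPE, the seed-coat form of the vacuolar processing enzymes, whose difference was -4.12 (limma adjusted p = 0.0182). GAMMA-VPE, the vegetative processing enzyme, had a difference of 0.03, and the aspartic protease gene PASPA1 one of 0.08, with adjusted p values of 0.951 and 0.743. BETA-VPE had a difference of 0.72 (adjusted p = 0.173) and SBT1.7 one of -0.27 (adjusted p = 0.225). At an unadjusted p under 0.05 there were 3 genes, DELTA-VPE and SBT1.7 lower and BETA-VPE higher.

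Markers of organs were read on the same arrays, and measured has the same meaning as for the lists above. Of 16 tapetum and pollen markers 4 were measured and 2 were lower by limma, ATA27 and A9. With the block SHT, a spermidine acyltransferase gene of the tapetum, was lower as well (adjusted p = 0.0791 without the block and 0.0412 with it). The differences were -3.00 for ATA27, -0.71 for A9 and -0.44 for SHT. That of AMS was -0.32, not called (limma adjusted p = 0.359 without the block and 0.311 with it). The mean level over the 4 genes was 5.66 to 5.94 on wild-type arrays and 4.68 to 4.75 on mutant arrays. Of these genes, 3 had at least 1 array at or below the bacterial 95th percentile. Both measured markers of seeds and siliques, of 12 listed, were lower, DELTA-VPE and BAN, with mean levels of 6.64 to 8.20 in the wild type and 4.93 to 5.34 in the mutant. Of 6 root markers 3 were measured and 0 were called by limma, 0 also at an unadjusted p under 0.05, with mean levels of 7.15 to 7.47 and 7.16 to 7.48. Of 7 leaf photosynthesis markers 2 were measured and 0 were called by limma, 1 at an unadjusted p under 0.05 (PRK), with mean levels of 13.3 to 13.5 and 13.0 to 13.2. Both measured markers of lesions and salicylate response, of 8 listed, were higher, SAG101 and BIK1, with mean levels of 6.43 to 6.70 and 7.80 to 7.84. The others listed, PR1, PR2, PR5, EDS1, PAD4 and SAG13, were not matched to a probe set, so these 2 genes do not stand for the whole list. The part of any of these in the SCPL differences was not tested.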

How the data were processed

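The authors deposited log2 expression values per probe set for 6 Affymetrix arrays. Per the submitters' processing notes, GCOS 1.1.2 and RMA are named without role, order or settings. That the scale is log2 was taken from the range of the values, 3.35 to 14.5. Nothing was renormalized. The table held 22810 probe sets, and the 64 Affymetrix controls were left out of the tests. Gene names came from the platform's annotation, which can be old. All 29 SCPL genes matched a RefSeq gene (assembly TAIR10.1) under the same symbol. Its gene order served only to find SCPL genes that lie near each other, and sequences were not used here.

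Genotypes were compared with limma 3.58.1 (lmFit and eBayes, R 4.3.3) over all 6 arrays, with no covariate and Benjamini-Hochberg adjustment over 22746 probe sets. The number of arrays limits the precision. A gene is called at an adjusted p under 0.05. Same-numbered arrays deviated together (correlations of deviations 0.433, 0.292 and 0.471 for numbers 1, 2 and 3), so the fit with the number as a block is printed where it changes a call. Between numbers 1 and 2 these correlations were also positive, at 0.120 and 0.116. Between number 3 and the others they ran from -0.411 to -0.263. The labels do not say what a number marks. The code was tested on simulated data. Values on every array are given for SCPL genes that were called in either fit, changed by at least 1 log2 unit, had groups that did not overlap with at least 1 group mean above the bacterial 95th percentile, or ranked among the 5 highest means. Some genes beyond that rule, scpl31, SCPL34 and scpl46, were chosen after their values were seen. The SCPL genes and the lists were chosen with earlier results of these data known. Alternatives were a replicate block, quantile normalization, a trended robust variance, array weights, 2 filters on dim probe sets and leaving out each array.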

Additional observations from a re-analysis of the deposited data

How the results depend on the processing

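No SCPL gene was called higher under any alternative run. The number called lower, 3 in all, was 7 with the replicate block, 5 with a trended robust variance and 10 with array weights. It was 1 when a group mean had to exceed the median of all values, which kept 14 of the SCPL genes. That filter left scpl47 and SCPL43 untested, while scpl20 stayed called (limma adjusted p = 0.0126). Besides the 7 genes of the block, scpl38, scpl41 and scpl48 were called with array weights, and scpl38 and scpl41 with the trended robust variance. Without wild-type array 3, scpl41 was called too (change -0.71, limma adjusted p = 0.0493). The number called lower was 3 with quantile normalization and with the lowest 33.3% of probe sets left out, and 0 to 3 when 1 array was left out. As no gene had several probe sets, the choice of probe set changed nothing and the one with the lowest mean was not run. Over all probe sets, 1279 were called, 532 higher and 747 lower. With the replicate block there were 2224, 1053 and 1171, and with array weights 2846, 1286 and 1560. Those lower were 733 with a trended robust variance and 769 with quantile normalization. They were 695 of 15164 probe sets with the lowest 33.3% left out, and 617 of 11966 with a group mean above the median. Without 1 array there were 255 to 1744 in all, 108 to 797 higher and 147 to 947 lower. Array weights ran from 0.342 for mutant array 3 to 1.98 for mutant array 2.

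Signs turned for genes that were not called. With array weights the changes were -0.055 for scpl18, -0.0090 for scpl22, -0.050 for scpl23, -0.020 for scpl28, 0.15 for SCPL34, -0.046 for scpl35 and -0.0042 for scpl42. With quantile normalization that of scpl18 was -0.0019. Without 1 array the change ran from -0.051 to 0.091 for scpl18, from -0.013 to 0.086 for scpl22, from -0.044 to 0.23 for scpl23, from -0.032 to 0.16 for scpl28, from -0.60 to 0.32 for scpl31, from -0.32 to 0.32 for SCPL34, from -0.068 to 0.061 for scpl35 and from -0.023 to 0.12 for scpl42. The cause was not tested. Fits without 1 array compare 2 arrays with 3, and levels near the bacterial controls limit what could be seen for 10 genes.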

Other observations

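Another 2 probe sets name an SCPL gene together with a second gene and were therefore not among the 29. The probe set shared by scpl37 and scpl36 measured 5.10, 4.84 and 4.23 in the wild type and 4.40, 4.19 and 4.39 in the mutant, so that wild-type array 3 lay among the mutant values (limma adjusted p = 0.388). The probe set shared by AT3G56540 and scpl39 stayed within the bacterial range on all 6 arrays, from 4.17 to 4.49 (limma adjusted p = 0.656).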
